A study of Mus musculus with 8 samples.

Results

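The 43 genes described here encode lysosomal hydrolases, lysosomal membrane proteins and cofactors, the vacuolar proton pump (V-ATPase) and the transcription factors that serve these genes. They were taken by name from a list, and all 43 matched an Ensembl gene of the count files, out of 48709 genes counted and 12696 tested. All 43 passed the filter on low counts. By role they fall into 8 cathepsins, 14 other hydrolases, 6 membrane proteins and hydrolase cofactors, 12 V-ATPase genes and 3 factors of the MiT/TFE family.

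RNA was measured in C57Bl/6J mouse hematopoietic stem and progenitor cells (HSPCs), purified as cells without lineage markers but with Sca1 and cKit, after 7 days in culture. In the treated group the medium held 100 µM malonyl-CoA, the building block of fatty acid chains, and in the control group it held none. Both groups grew in the same serum-free medium with SCF (100 ng/ml), Flt3 ligand (2 ng/ml) and antibiotics. Each group held 4 libraries, numbered 1, 3, 4 and 5, made from the offspring of 10000 seeded cells each.

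Lysosomes break down proteins, lipids, glycans and glycogen that reach them by endocytosis, phagocytosis or autophagy. The V-ATPase pumps protons into the lumen, and the hydrolases need that acid to work. TFEB, TFE3 and MITF are kept in the cytoplasm by mTORC1 signalling at the lysosomal surface when nutrients are plentiful, and otherwise enter the nucleus and bind E-boxes in the promoters of lysosomal genes. Monocytes and macrophages are rich in lysosomes, and granulocyte precursors store related enzymes in their granules.

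Gene counts ranged from 17492085 to 22079844 per library, and every one of the 43 genes had at least 157 reads in every library. Most HSPC markers were detected after culture, with Mecom under 1 CPM. Of the 12, 8 had a negative and 4 a positive fold change (median -0.08). Cd34 and Hlf (log2 fold changes -0.40 and -0.55) lay wholly below the controls, as 2.93% of all genes did. Ly6a, the Sca1 gene, had the largest fold change of the list, at 0.94 (SE 0.44), with groups that overlapped. It averaged 81.3 ± 37.2 CPM with malonyl-CoA and 42.2 ± 21.1 CPM in control (SD, n = 4 each). Cd34 was at 454 ± 20.1 CPM with malonyl-CoA and 598 ± 41.4 CPM in control, and Myb at 381 ± 126 and 422 ± 81.8 CPM (SD, n = 4 each). CPM are counts scaled to library size with TMM factors. Granulocyte and monocyte transcripts were abundant too, led by Mpo (9165 ± 1470 CPM with malonyl-CoA and 9386 ± 2425 CPM in control) and Lyz2 (2157 ± 281 and 2104 ± 536 CPM). Malonyl-CoA 4 and control 4 stood apart from the other libraries, at 63.3 and 25.3 on the first principal component, and control 5 differed in base composition: its deviations followed GC content across genes with a Spearman's rho of -0.67, against -0.09 to 0.44 in the other 7 libraries. Malonyl-CoA 4 was the lowest of its group in 31 of the 43, and among controls the lowest was control 4 in 20 and control 5 in 18.

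The promoters show which of these genes carry the E-box letters. Windows from RefSeq (GRCm38.p6), running from 250 bases before to 50 after each start site, were found for 37 of the 43 genes, 47 windows in all. There were none for Ctsb, Ctsh, Asah1, Atp6v1b2, Atp6v1c1 and Atp6v1h. The letters searched were CACGTG and its longer form TCACGTGA. Each reads the same on both strands, and the longer form always holds the shorter one. CACGTG was in 12 of the 37 genes, which is 32.4%, against 8.09% of the 27025 genes of the table, and TCACGTGA was in 5 of 37, which is 13.5%, against 1.12%. The 27025 genes were not limited to those tested here, while the 37 all were, so the shares come from unlike sets. A match is a description of the letters and not a bound site. The stretches below are the 120 bases before the start site of the 3 genes that hold the longer form whole there, and of Lamp1, whose 4 E-boxes are the most in any of the 47 windows. Capitals mark CACGTG or TCACGTGA.

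Ctsa, chr2:164833653-164833772, plus strand: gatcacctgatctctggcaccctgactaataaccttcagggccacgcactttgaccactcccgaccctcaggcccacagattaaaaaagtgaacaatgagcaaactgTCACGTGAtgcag
Ctsd, chr7:142387828-142387947, minus strand: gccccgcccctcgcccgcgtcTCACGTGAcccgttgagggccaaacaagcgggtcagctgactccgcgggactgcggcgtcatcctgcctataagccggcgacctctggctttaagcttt
Mcoln1, chr8:3500399-3500518, plus strand: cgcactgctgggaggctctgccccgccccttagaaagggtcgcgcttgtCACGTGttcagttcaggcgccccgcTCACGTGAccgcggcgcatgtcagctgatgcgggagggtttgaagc
Lamp1, chr8:13159041-13159160, plus strand: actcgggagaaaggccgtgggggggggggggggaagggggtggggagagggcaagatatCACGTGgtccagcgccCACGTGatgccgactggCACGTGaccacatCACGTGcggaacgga

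In Ctsa the longer form began 13 bases before the downstream one of its 2 start sites and came again just after it. In Ctsd it began 99 bases and in Mcoln1 46 bases before the start. The 4 E-boxes of Lamp1 began 61, 45, 28 and 15 bases before its start. Atp6v1a held the longer form farther out, and Atp6v0d1 held it across its start site. The 8 windows of Tfeb, Tfe3 and Mitf held neither form, and nor did the single window of Ctsz, the gene with the smallest p of the family.

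The comparison asked whether lysosomal genes differed between cultures with malonyl-CoA and control cultures. None of the 43 passed edgeR's quasi-likelihood test at an adjusted p under 0.05 (0 higher and 0 lower, the smallest being 0.352), and over all 12696 genes tested the share called was 0% in each direction. At an unadjusted p under 0.05, 6 of the 43 were higher with malonyl-CoA and 1 was lower, where 5.43% and 4.1% of all genes were. In 5 of the 43 all malonyl-CoA libraries lay above all controls, and in 1 all lay below, against 3.21% and 2.93% of all genes. DESeq2, run as an alternative, called 1 of the 43 (Ctsz, higher) where it called 0.469% of genes higher and 0.123% lower, and limma-voom called 0. With a correction for GC content, or for GC content and length, 2 of the 43 lay wholly above the controls, where 1.58% and 2.12% of all genes did, and with plain library sizes 0 lay wholly below, where 2.94% of all genes did. Non-overlap is more frequent with fewer libraries. Without malonyl-CoA 4, 9 of the 43 lay wholly above (5.59% of all genes did), and without malonyl-CoA 5, 8 did (5.99% of all genes). Without control 4, 4 of the 43 lay wholly below, as did 10.2% of all genes. In bulk RNA, fewer cells of a type and less RNA per cell cannot be told apart. The 24 genes with a positive log2 fold change were about as frequent as in the table at large (55.8% of the 43, 53.4% of all genes), and the medians were 0.06 for the 43 and 0.02 for all genes.

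**Figure D1:**
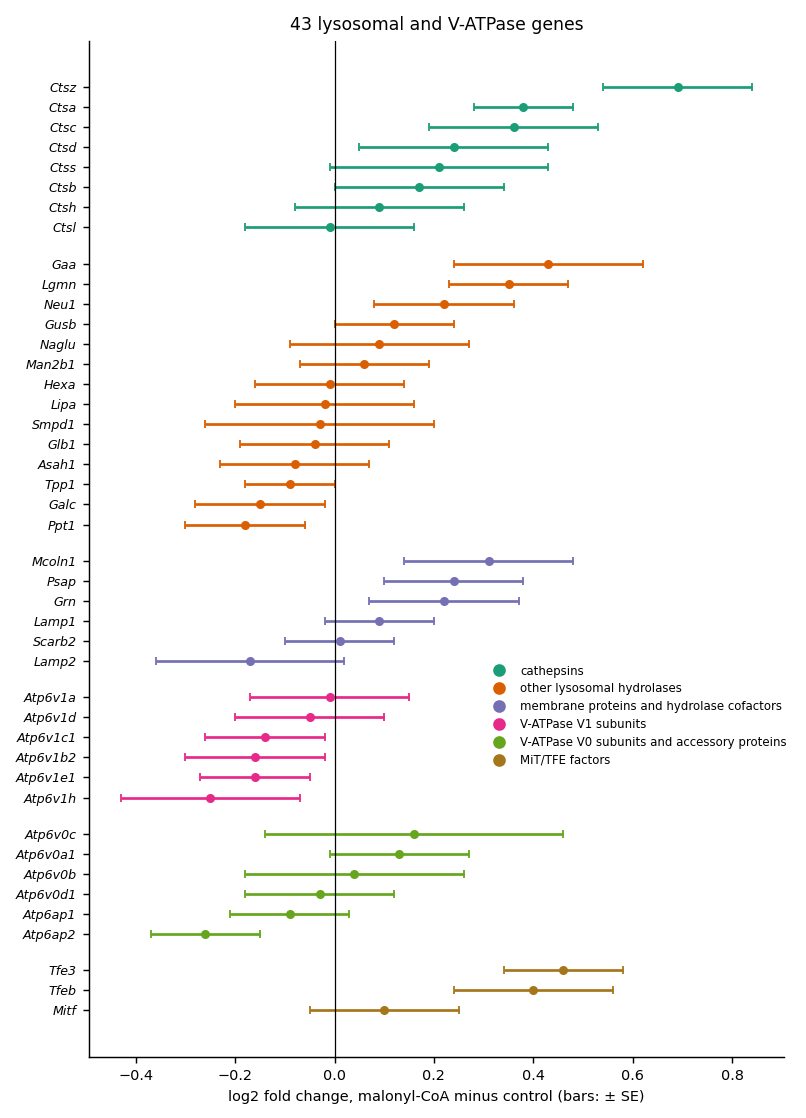
Log2 fold change of each of the 43 genes on the x axis, malonyl-CoA minus control, with bars of ± 1 SE, coloured by role and ordered within it. Cathepsins and MiT/TFE factors lie mostly right of 0, and none of the 43 passed the test. The 6 listed V1 subunits of the V-ATPase all lie left of 0 by small margins (Atp6v1a crosses to 0.034 with plain library sizes).

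The roles differed in where their values lay. Median log2 fold changes were 0.40 for the 3 MiT/TFE factors, 0.23 for the 8 cathepsins, 0.16 for the 6 membrane proteins and cofactors, -0.02 for the 14 other hydrolases, 0.01 for the 6 V0 and accessory genes and -0.15 for the 6 V1 subunits. These are medians of fold changes with SEs of 0.09 to 0.30, and no test was run on a role as a group. Single libraries carried part of them: the cathepsin median was 0.36 without malonyl-CoA 4 and 0.15 without malonyl-CoA 3, the MiT/TFE median 0.26 and the membrane protein median 0.08 without control 5, and the V1 median -0.07 without malonyl-CoA 4. With the GC correction the medians were 0.18 for MiT/TFE factors, 0.17 for cathepsins, 0.03 for membrane proteins and cofactors, -0.06 for other hydrolases, -0.15 for V0 and accessory genes and -0.08 for V1 subunits. With GC content and length corrected the cathepsin median was 0.14.

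Among the cathepsins, Ctsz had the largest difference. It encodes cathepsin Z, a cysteine carboxypeptidase (ENSMUSG00000016256, GRCm38 chromosome 2, 174427493 to 174439039, minus strand). Ctsz had 357, 366, 307 and 373 CPM in malonyl-CoA 1, 3, 4 and 5, against 196, 256, 249 and 172 CPM in controls 1, 3, 4 and 5. Every malonyl-CoA library lay above every control, with malonyl-CoA 4 the lowest of its group and control 5 the lowest of all. The fitted log2 fold change was 0.69 with an SE of 0.15 (adjusted p = 0.352), and it lay between 0.59 without control 5 and 0.77 without control 3. DESeq2 gave an adjusted p of 0.0245.

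Ctsa encodes cathepsin A, a serine carboxypeptidase that also holds beta-galactosidase and sialidase in a protective complex (ENSMUSG00000017760, chromosome 2, 164832873 to 164841032, plus strand). It had 185, 196, 179 and 174 CPM in malonyl-CoA 1, 3, 4 and 5, against 137, 154, 148 and 126 CPM in controls 1, 3, 4 and 5. The groups did not overlap, and malonyl-CoA 4 lay within its group (184 ± 9.62 CPM with malonyl-CoA and 141 ± 12.3 CPM in control, SD, n = 4 each). The log2 fold change was 0.38 (SE 0.10, adjusted p = 0.373). Exons of Pltp and Neurl2 on the opposite strand cover 10.5% and 6.87% of its exon bases, and whether counting used strand is not given in the sources used here.

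**Figure D2:**
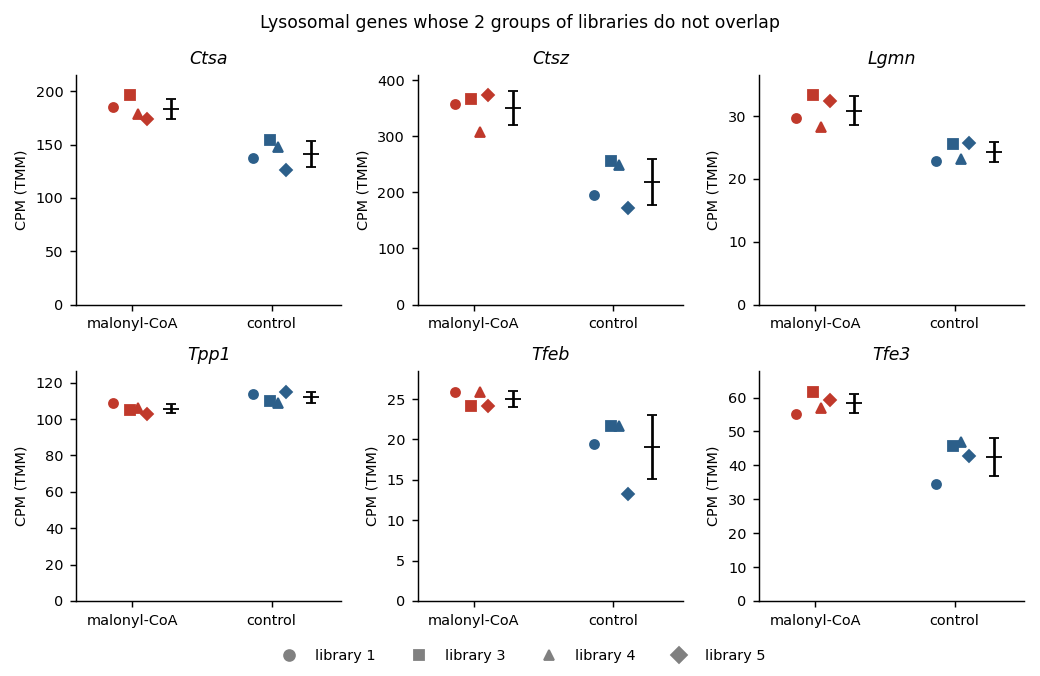
CPM in each library for the 6 genes whose groups did not overlap, with malonyl-CoA on the left and control on the right of each panel, marker shape for the library number, and a black bar for the mean ± SD (n = 4). In Ctsa, Ctsz, Lgmn, Tfeb and Tfe3 all malonyl-CoA points lie above the controls, and in Tpp1 all lie below by a small margin.

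The groups of the other 6 cathepsins overlapped. Ctsc, the dipeptidyl peptidase that activates granule serine proteases, had 522, 513, 346 and 481 CPM in malonyl-CoA 1, 3, 4 and 5, against 380, 414, 273 and 385 CPM in controls 1, 3, 4 and 5. The other 3 malonyl-CoA libraries lay above all controls, and malonyl-CoA 4 lay among them (log2 fold change 0.36, SE 0.17, adjusted p = 0.515). Ctsb, a cysteine protease and the most abundant cathepsin by count, had 890, 948, 615 and 903 CPM with malonyl-CoA, against 679, 880, 632 and 790 CPM in control. Malonyl-CoA 4 lay below every control while the other 3 lay above, and the log2 fold change was 0.17 (SE 0.17). Of its exon bases, 12.8% lie under Fdft1 exons of the opposite strand, a gene with 204 CPM.

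Ctss, which trims the invariant chain of MHC class II, had 330, 378, 198 and 359 CPM in malonyl-CoA 1, 3, 4 and 5, against 247, 314, 202 and 327 CPM in the controls (log2 fold change 0.21, SE 0.22). Both libraries numbered 4 were the lowest of their group. Without malonyl-CoA 4 the groups of Ctsb, Ctsc and Ctss no longer overlapped, where 5.59% of all genes lay wholly above the controls. Their log2 fold changes were then 0.29, 0.47 and 0.38. Without control 4 they were 0.10, 0.24 and 0.096, and the groups overlapped. Ctsd, the aspartic protease of lysosomes, had 289, 280, 193 and 241 CPM with malonyl-CoA, against 221, 262, 217 and 148 CPM in control (log2 fold change 0.24, SE 0.19, and 0.10 without control 5 or 0.055 with the GC correction). Its groups overlapped, and 34.4% of its exon bases are shared on the same strand with Gm49369, which had 0 CPM. Ctsh, an aminopeptidase, averaged 150 ± 26.3 CPM with malonyl-CoA and 141 ± 25.2 CPM in control, and Ctsl, a cysteine endopeptidase, 132 ± 24.5 and 133 ± 20.8 CPM (SD, n = 4 each). Their log2 fold changes of 0.09 and -0.01 lay inside their SEs of 0.17. Summed over the 8 cathepsins, levels ran from 2048 to 3010 CPM with malonyl-CoA and from 1934 to 2601 CPM in control, so the groups overlapped.

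Per kilobase of annotated exon, Ctss led the cathepsins with a mean level of 217 CPM per kb over the 8 libraries. Ctsz followed with 197 and Ctsb with 131. That length counts the exons of all annotated transcripts, whether used in these cells or not. It was 1.36 kb for Ctss, 1.44 kb for Ctsz, 6.05 kb for Ctsb and 6.49 kb for Ctsl, so the order depends on annotation as well as on reads. Ctsl was the lowest with 20.4 CPM per kb. The saposin precursor gene Psap was far above them, at 618 CPM per kb.

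**Figure D3:**
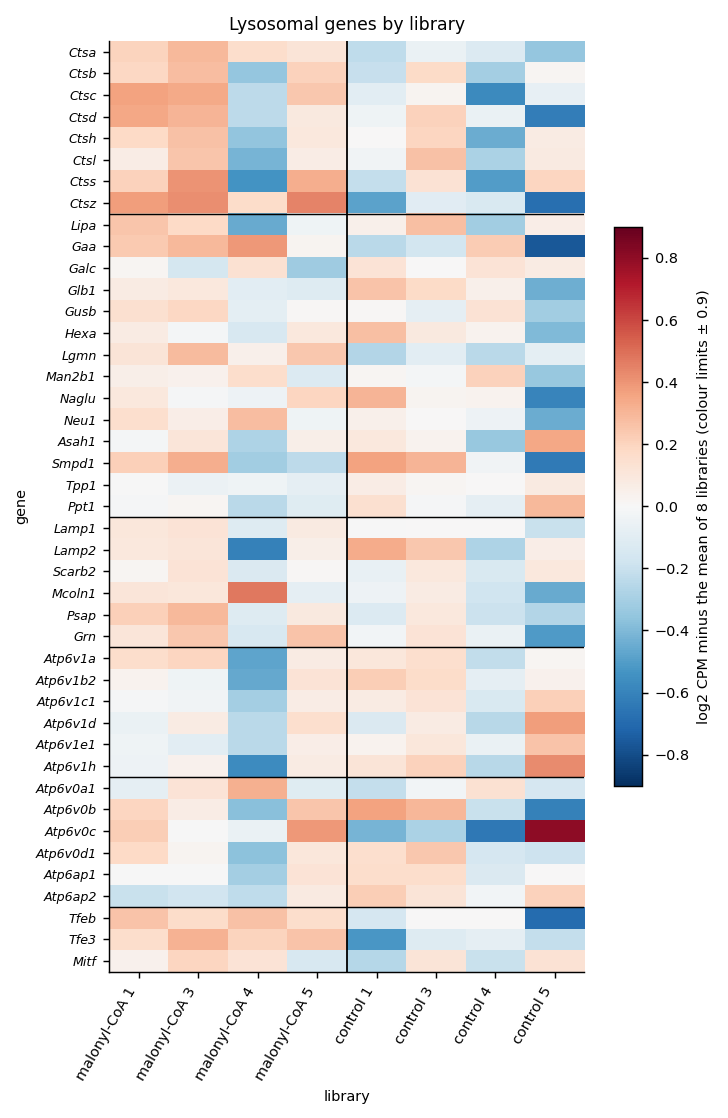
Log2 CPM of each gene (rows) in each library (columns), as the difference from the mean of all 8 libraries, with malonyl-CoA left and control right of the black line and roles split by horizontal lines. Malonyl-CoA 4 is blue for most cathepsins and V-ATPase genes, control 5 is dark blue for Ctsz, Ctsd, Gaa, Naglu, Smpd1, Grn, Atp6v0b and Tfeb, and its deepest red is Atp6v0c.

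Among the other hydrolases, 2 of 14 were higher at an unadjusted p under 0.05 (5.43% of all genes were), 6 had a positive and 8 a negative fold change. Lgmn encodes legumain, the asparaginyl endopeptidase that processes cathepsins (ENSMUSG00000021190, chromosome 12, 102394084 to 102439813, minus strand). It had 29.7, 33.3, 28.2 and 32.4 CPM in malonyl-CoA 1, 3, 4 and 5, against 22.8, 25.5, 23.1 and 25.8 CPM in the controls. The groups did not overlap, and the log2 fold change of 0.35 (SE 0.12, adjusted p = 0.467) stayed between 0.31 and 0.38 when single libraries were left out.

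Gaa, the acid glucosidase that digests glycogen, had 107, 111, 119 and 92.5 CPM in malonyl-CoA 1, 3, 4 and 5, against 76.7, 80.9, 106 and 53.5 CPM in the controls (log2 fold change 0.43, SE 0.19, adjusted p = 0.515). Control 4 lay among the malonyl-CoA libraries and control 5 was the lowest of all. Without control 5 the log2 fold change of Gaa was 0.29, and without control 4 it was 0.61. Tpp1, a tripeptidyl peptidase, had 109, 105, 106 and 103 CPM with malonyl-CoA, against 114, 110, 109 and 115 CPM in control. All malonyl-CoA libraries lay below all controls, but 109 CPM in malonyl-CoA 1 and in control 4 differ only in later digits, and the log2 fold change was -0.09 (SE 0.09, adjusted p = 0.667).

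None of the sphingolipid and glycan enzymes had an unadjusted p under 0.05. Asah1, the acid ceramidase, averaged 294 ± 33.3 CPM with malonyl-CoA and 310 ± 59.2 CPM in control, Smpd1, the acid sphingomyelinase, 43.1 ± 9.51 and 43.9 ± 12.5 CPM, and Galc, which removes galactose from galactosylceramide, 24.7 ± 3.38 and 27.4 ± 1.04 CPM (SD, n = 4 each). Their log2 fold changes were -0.08, -0.03 and -0.15, with SEs of 0.15, 0.23 and 0.13. Hexa, the alpha subunit of beta-hexosaminidase, averaged 319 ± 23.9 and 322 ± 59.4 CPM, and had the highest level per kilobase of these hydrolases at 160 CPM per kb. Log2 fold changes are given in brackets for the beta-galactosidase gene Glb1 (-0.04, SE 0.15), the beta-glucuronidase gene Gusb (0.12, SE 0.12), the alpha-mannosidase gene Man2b1 (0.06, SE 0.13), Naglu of heparan sulfate breakdown (0.09, SE 0.18) and the sialidase gene Neu1 (0.22, SE 0.14).

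Lipa, the acid lipase that splits cholesteryl esters and triglycerides, had 110, 104, 67.1 and 89.6 CPM in malonyl-CoA 1, 3, 4 and 5, against 94.9, 111, 74 and 96 CPM in the controls. The groups lay over each other, with both libraries numbered 4 lowest, and the log2 fold change was -0.02 (SE 0.18). Ppt1, which removes palmitate from proteins, averaged 103 ± 8.20 CPM with malonyl-CoA and 116 ± 13.5 CPM in control (SD, n = 4 each), with a log2 fold change of -0.18 (SE 0.12). It shares 3.51% of its exon bases with Cap1 on the opposite strand.

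Among membrane proteins and cofactors, 5 of 6 fold changes were positive and none of the 6 had an unadjusted p under 0.05. Psap, the most abundant gene of the 43, had 1952, 2057, 1551 and 1786 CPM in malonyl-CoA 1, 3, 4 and 5, against 1547, 1797, 1472 and 1400 CPM in the controls. Control 3 lay above malonyl-CoA 4 and 5, and the log2 fold change was 0.24 (SE 0.14, adjusted p = 0.522). Grn, the progranulin gene, had 574, 630, 481 and 634 CPM with malonyl-CoA, against 522, 580, 510 and 373 CPM in control (log2 fold change 0.22, SE 0.15, and 0.11 without control 5). With the GC correction Psap was at 0.068 and Grn at 0.029.

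Mcoln1, a calcium channel of the lysosomal membrane whose gene carries the longer E-box form shown above, had 21.1, 21, 27.2 and 18.5 CPM in malonyl-CoA 1, 3, 4 and 5, against 18.9, 20.6, 17.2 and 14.3 CPM in the controls. The highest value was that of malonyl-CoA 4, and the log2 fold change of 0.31 (SE 0.17, adjusted p = 0.519) was 0.18 without that library. Lamp1, an abundant glycoprotein of the lysosomal membrane with 4 E-boxes before its start, had 612, 623, 527 and 603 CPM with malonyl-CoA, against 571, 573, 573 and 497 CPM in control (log2 fold change 0.09, SE 0.11, and 0.00043 with the GC correction). Lamp2, its relative needed for autophagy, had 624, 631, 384 and 606 CPM with malonyl-CoA, against 736, 694, 483 and 610 CPM in control (log2 fold change -0.17, SE 0.19). Without malonyl-CoA 4 the value for Lamp2 was -0.03. Scarb2, the receptor that brings glucocerebrosidase to lysosomes, averaged 93.0 ± 6.71 and 92.5 ± 7.48 CPM (SD, n = 4 each), a log2 fold change of 0.01 (SE 0.11).

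The V-ATPase consists of a V1 part, which splits ATP in the cytoplasm, and a V0 part in the membrane, through which protons pass. All 6 listed V1 genes had a negative log2 fold change in the main fit, from -0.25 to -0.01. With plain library sizes Atp6v1a was at 0.034, and with a GC correction Atp6v1a and Atp6v1d were at 0.05 and 0.051. Tested V1 genes outside the list were Atp6v1g1 at 0.02 (SE 0.16), Atp6v1f at -0.06 (SE 0.17) and Atp6v1g2 at -0.06 (SE 0.38). None passed the test. Atp6v1h, a regulatory subunit, had 119, 127, 83.3 and 129 CPM in malonyl-CoA 1, 3, 4 and 5, against 134, 143, 104 and 165 CPM in the controls. Malonyl-CoA 4 was the lowest of all and control 5 the highest, and the groups overlapped (log2 fold change -0.25, SE 0.18, adjusted p = 0.562). Atp6v1a, the catalytic subunit, averaged 316 ± 61.2 CPM with malonyl-CoA and 317 ± 34.9 CPM in control, and its partner Atp6v1b2 335 ± 55.3 and 375 ± 34.5 CPM (SD, n = 4 each). The stalk subunit Atp6v1e1 averaged 125 ± 10.8 and 140 ± 13.1 CPM, Atp6v1c1 94.4 ± 10.3 and 104 ± 10.4 CPM, and the rotor subunit Atp6v1d 89.7 ± 10.4 and 92.8 ± 18.2 CPM. Malonyl-CoA 4 was the lowest malonyl-CoA library in 11 of the 12 V-ATPase genes and control 4 the lowest control in 9. Without malonyl-CoA 4 Atp6v1a was at 0.12.

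Of the V0 and accessory genes, Atp6ap2, the accessory protein also known as the prorenin receptor (ENSMUSG00000031007, chromosome X, 12587801 to 12617049, plus strand), had the smallest p. It had 289, 294, 283 and 350 CPM in malonyl-CoA 1, 3, 4 and 5, against 387, 360, 327 and 384 CPM in the controls. Only malonyl-CoA 5 reached into the range of the controls (log2 fold change -0.26, SE 0.11, adjusted p = 0.515). The other accessory gene, Atp6ap1, averaged 290 ± 34.8 and 309 ± 29.7 CPM (log2 fold change -0.09, SE 0.12). In the membrane part, Atp6v0a1, which lines the proton path, averaged 69.2 ± 9.89 and 63.0 ± 6.92 CPM, Atp6v0d1, which couples V0 to the rotor, 146 ± 22.9 and 149 ± 22.3 CPM, and the ring subunit gene Atp6v0b 189 ± 34.2 and 184 ± 54.7 CPM (SD, n = 4 each).

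Atp6v0c encodes the main subunit of the proton-carrying ring, and the annotation also lists the processed pseudogenes Atp6v0c-ps1 and Atp6v0c-ps2. Reads shared with them were not measured, and its counts may be uncertain for that reason. It had 32.1, 27.5, 26.5 and 36.2 CPM in malonyl-CoA 1, 3, 4 and 5, against 20.6, 22.6, 17.6 and 48.2 CPM in the controls. Control 5 was the highest of the 8 libraries while the other 3 controls were the lowest, so the log2 fold change of 0.16 (SE 0.30) became 0.59 without control 5 and 0.0017 without control 4. At 8.55 CPM per kb it stood below Atp6v0b with 91.0 CPM per kb.

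Of the MiT/TFE factors, Tfe3 (ENSMUSG00000000134, chromosome X, 7762560 to 7775202, plus strand) had 55.2, 61.7, 56.9 and 59.4 CPM in malonyl-CoA 1, 3, 4 and 5, against 34.5, 45.6, 47 and 42.8 CPM in the controls. The groups did not overlap, and malonyl-CoA 4 was among its group rather than below it. The log2 fold change was 0.46 (SE 0.12, adjusted p = 0.373), and it lay between 0.37 without control 1 and 0.51 without control 4. Tfeb (ENSMUSG00000023990, chromosome 17, 47737030 to 47792419, plus strand) had 25.9, 24.2, 25.9 and 24.2 CPM with malonyl-CoA, against 19.5, 21.7, 21.7 and 13.3 CPM in control. The malonyl-CoA libraries lay close together above the controls, and control 5 was far below the others. The log2 fold change of Tfeb was 0.40 (SE 0.16, adjusted p = 0.515), and 0.26 without control 5.

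Mitf averaged 11.2 ± 1.12 CPM with malonyl-CoA and 10.4 ± 1.49 CPM in control (SD, n = 4 each), a log2 difference of 0.10 (SE 0.15). Summed, the 3 factors ran from 92.1 to 98.3 CPM with malonyl-CoA and from 62.9 to 79.0 CPM in control. That sum is mostly Tfe3. RNA levels do not show where the proteins are, and these factors are controlled largely by their place in the cell.

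Base composition moved with several of these values. Tfeb has the highest GC content of the 43, at 63.2% of its longest transcript, and Gaa has 59.5%, Ctsz 57.3% and Tfe3 52.1%, against a median of 49.4% over tested genes and 44.5% for the V1 subunits. With a correction for GC content in each library, the log2 fold change of Tfeb was 0.0054, that of Gaa 0.15, that of Ctsz 0.46, that of Ctsa 0.21, that of Lgmn 0.24, that of Tfe3 0.35 and that of Ctsc 0.47. With GC content and length both corrected for, it was 0.014 for Tfeb, 0.081 for Gaa, 0.56 for Ctsz, 0.17 for Ctsa, 0.30 for Lgmn, 0.23 for Tfe3 and 0.50 for Ctsc. After the GC correction the groups of Tfe3 and Ctsa still did not overlap, but those of Ctsz and Lgmn did. After the correction for both, the groups of Ctsz and Lgmn did not overlap, but those of Tfe3 and Ctsa did. None of these genes stayed apart under both corrections. Tpp1, which lay wholly below the controls by a small margin, did so in both (log2 fold change -0.12 in each). The fold changes of Ctsz, Ctsa, Lgmn and Tfe3 kept their direction in both, and the difference in Tfeb was close to 0 in both.

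**Figure D4:**
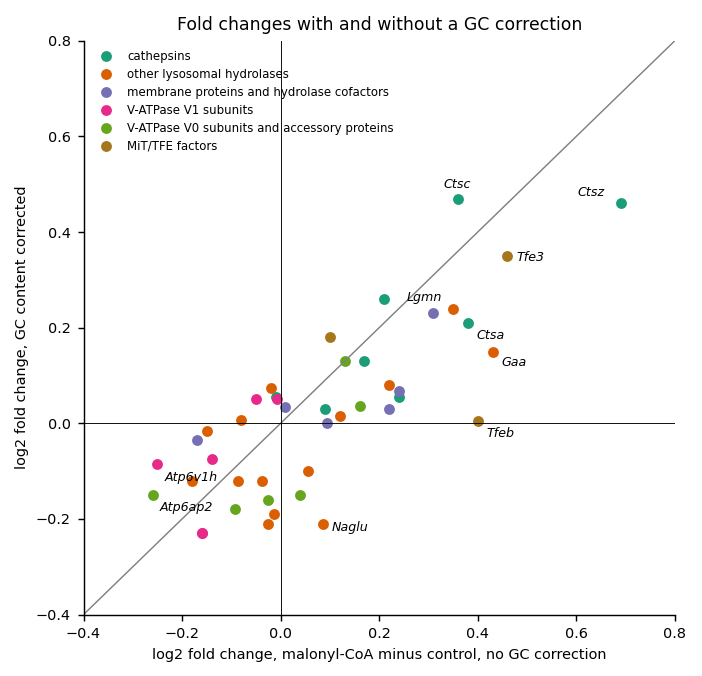
Log2 fold change of each of the 43 genes without a GC correction on the x axis and with one on the y axis, malonyl-CoA minus control, coloured by role, with the line of equal values in grey. With the correction Tfeb drops from 0.40 to about 0, Gaa from 0.43 to 0.15, Ctsz from 0.69 to 0.46 and Tfe3 from 0.46 to 0.35.

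Other genes of the same pathways, on lists drawn up by pathway, likewise gave 0 calls in edgeR. Among 42 other lysosomal genes 21 had a positive fold change (median 0), 6 were higher and 1 lower at an unadjusted p under 0.05, and 4 lay wholly above and 2 wholly below the controls. Over all genes those shares were 5.43% and 4.1% by p, and 3.21% and 2.93% by non-overlap. Clcn7, the chloride and proton exchanger of lysosomes, averaged 43.5 ± 3.39 CPM with malonyl-CoA and 30.0 ± 6.71 CPM in control (SD, n = 4 each), a log2 difference of 0.54 (SE 0.17, adjusted p = 0.440). In control 5 it was at 20.3 CPM, against 31.6 to 35.8 CPM in the other controls. Next by p were the amidase gene Naaa (log2 difference 0.35, SE 0.12) and the acid phosphatase gene Acp2 (0.35, SE 0.13). Of 7 tested further V-ATPase genes 4 were positive. Tcirg1, the a3 subunit of V0, averaged 109 ± 21.6 and 77.7 ± 23.5 CPM with groups that did not overlap (log2 fold change 0.48, SE 0.24). The margin was small, with 94.8 CPM in malonyl-CoA 5 and 92.5 CPM in control 3. Control 5 was far below the other controls at 42.7 CPM, and malonyl-CoA 4 was the highest at 140 CPM. Atp6v0e (-0.22, SE 0.20) and the barely detected Atp6v0d2 (0.48, SE 0.79) were within about 1 SE of 0.

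Among inhibitors of lysosomal proteases, 5 of 6 tested had a negative fold change (median -0.15). At an unadjusted p under 0.05, 1 was lower, where 4.1% of all genes were. That gene was Serpinb1a, an inhibitor of granulocyte serine proteases including cathepsin G, at 491 ± 57.8 CPM with malonyl-CoA and 635 ± 79.0 CPM in control (SD, n = 4 each), a log2 difference of -0.37 (SE 0.13, adjusted p = 0.491). Its relative Serpinb6a was at a log2 difference of -0.24 (SE 0.17) and the stefin gene Stfa1, at 0.636 ± 0.349 and 1.01 ± 0.769 CPM (SD, n = 4 each), at -0.70 (SE 0.71).

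In the mTORC1 and Rag GTPase branch that holds TFEB in the cytoplasm, 9 of 19 were positive (median -0.02). At an unadjusted p under 0.05, 1 was higher and 1 lower, where 5.43% and 4.1% of all genes were. Fnip2, a folliculin partner, averaged 32.1 ± 1.82 CPM with malonyl-CoA and 25.7 ± 3.37 CPM in control, and Rragb, a Rag GTPase, 10.4 ± 0.662 and 12.6 ± 0.520 CPM (SD, n = 4 each). Neither pair of groups overlapped, and the log2 fold changes were 0.32 (SE 0.13) and -0.28 (SE 0.12). Mtor, the kinase itself, had 36.2, 37.1, 70 and 25.2 CPM with malonyl-CoA, against 21, 25.4, 39.5 and 24.2 CPM in control. Both libraries numbered 4 were the highest of their group (log2 fold change 0.61, SE 0.31). Among 17 autophagy genes 9 were positive (median 0.10). Tecpr1 (0.57, SE 0.25) and Wipi1 (0.35, SE 0.16), both linked to autophagosomes, were the positive ones with the smallest p, and Atg12, the ubiquitin-like tag of the autophagy machinery, was at -0.24 (SE 0.11).

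None of the markers of the other cell types that such cultures can hold was called by edgeR, and their part in the lysosomal values was not tested. Over all genes 0 were called, and 5.43% were higher and 4.1% lower at an unadjusted p under 0.05. Of 13 tested monocyte and macrophage markers 10 had a positive fold change (median 0.36), 5 of them at an unadjusted p under 0.05, but their summed level was 2835 to 3647 CPM with malonyl-CoA and 2404 to 4038 CPM in control, and 5 of the 16 listed averaged under 1 CPM, among them the C1q genes of mature macrophages. The 2 most abundant, Lyz2 and Ccr2, which make up most of that sum, were at log2 differences of 0.04 and -0.26. The next in level, the growth factor receptor gene Csf1r, was at 0.52 (SE 0.11, adjusted p = 0.352), with 315 ± 27.8 CPM with malonyl-CoA and 219 ± 16.4 CPM in control (SD, n = 4 each). The scavenger receptor gene Marco was at 1.89 (SE 0.23, adjusted p = 0.146), with 7.99 ± 1.54 and 2.13 ± 0.529 CPM, and neither gene's groups overlapped. Dendritic cell markers had 9 of 11 positive (median 0.61), 5 at an unadjusted p under 0.05, led in level by Cd74 at 597 ± 166 and 366 ± 125 CPM and Irf8 at 559 ± 35.9 and 549 ± 59.1 CPM (SD, n = 4 each), with sums of 1425 to 2303 CPM with malonyl-CoA and 1272 to 1912 CPM in control. Xcr1 and Batf3 averaged under 1 CPM. Granulocyte markers had 12 of 13 negative (median -0.36), 5 at an unadjusted p under 0.05, with sums of 13488 to 17300 and 13198 to 20849 CPM, and Ly6g of mature neutrophils was near 0. Mpo is given above, and Elane averaged 2488 ± 387 CPM with malonyl-CoA and 3200 ± 1056 CPM in control. Mast cell and basophil markers had 7 of 9 negative (median -0.19), and their sums of 753 to 871 CPM with malonyl-CoA lay below the 913 to 1095 CPM of the controls. In that list Mcpt8 averaged 261 ± 21.9 and 330 ± 39.4 CPM, and Cpa3 158 ± 10.7 and 212 ± 43.8 CPM.

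Erythroid and megakaryocyte markers had 4 of 9 tested positive (median -0.21), with sums of 679 to 1007 CPM with malonyl-CoA and 889 to 1096 CPM in control. The erythroid gene Alas2 was at 0 in every library, and the most abundant markers were Itga2b (326 ± 43.7 and 305 ± 65.7 CPM) and Ppbp (227 ± 44.7 and 296 ± 58.9 CPM). B and T cell markers summed to 18 to 27.9 and 21.3 to 25.5 CPM, nearly all from Cd79b, with Cd3e at 0. Stromal markers summed to 7.86 to 10.4 CPM with malonyl-CoA and 6.73 to 7.28 CPM in control, mostly from Cdh5, with Col3a1 and Dcn at 0.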

How the data were processed

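RNA libraries were made from 350 ng of total RNA per sample with a kit that keeps strand, as the labels' protocols state. The deposited files hold raw counts of reads by Ensembl gene. The submitters' processing notes name cutadapt 1.8, STAR 2.5.2b and HTSeq 0.6.1 with build GRCm38. Neither annotation release nor strand setting of the counter is given in the sources used here. Classes that name no gene stayed out of library sizes. They held 1.11% to 2.94% (no feature), 0.715% to 0.891% (ambiguous) and 38.2% to 51.1% (several positions) of all tallies. A read with several positions may be tallied more than once, so the last share may overstate the share of reads. Reads of genes with near-identical copies fall in the last class. Groups came from sample titles. The design text gives 4 biological replicates per group. Nothing says that replicates came from separate animals, so p-values measure the spread between these samples. All 28 pairs of libraries differed by more than sampling noise, with a chi-square of at least 7.63 for each gene on average.

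Symbols, coordinates, exon lengths and GC content came from GENCODE M21 (GRCm38), which matched 48349 of 48709 identifiers. The fit used edgeR 4.0.16 in R 4.3.3: filterByExpr (minimum count 10, total 15), TMM, robust glmQLFit and the two-sided glmQLFTest, adjusted by Benjamini-Hochberg over 12696 genes at 0.05, with no covariate. An SE is the size of a fold change (log2) divided by the root of its F value. Log2 CPM used a prior count of 2. On counts simulated for the 12696 genes of malonyl-CoA against control, edgeR recovered 76% of genes changed by 1 log2 unit and 100% of those changed by 2, with 16 false calls among 192. Smaller changes, such as those of all 43 members, were not simulated. On the measured counts edgeR called 0 genes, although log2 fold changes over all genes tested ran from -2.05 to 2.09. Marco, at 1.89, had an edgeR adjusted p of 0.146. The simulated shares therefore may overstate what the fit could recover from these libraries, and the reason for the gap was not tested. Alternatives were RLE factors, library size only, other low-count filters, DESeq2 1.42.0, limma-voom (limma 3.58.1), loess corrections (span 0.5) for GC content or GC content and length, the replicate number as a block, and libraries left out. All members were named. Of each related list the 3 genes with the smallest p were named, and of each marker list at least the 2 with the highest level. Atp6v1f, Atp6v1g1, Atp6v1g2, Hlf, Ly6a, Csf1r, Marco and markers named for levels near 0 were chosen after their values were seen. The members, lists and tests were chosen with earlier results of these data known, so nothing here is independent support for a pattern already seen in them.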

Additional observations from a re-analysis of the deposited data

Results flagged for a closer look

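In 3 of the 86 sets of 4 libraries formed by the 43 genes and 2 groups, 1 library stood far from the other 3 on the log2 CPM scale, by a gap of more than 0.829 of the set's range. Chance gives this in about 1 of 20 sets. Ctsb in malonyl-CoA 4 (615 CPM, against 890 to 948 CPM in the other 3) had a gap of 0.853 of the range. Lamp2 in malonyl-CoA 4 (384 CPM, against 606 to 631 CPM) had one of 0.921. Lamp1 in control 5 (497 CPM, against 571 to 573 CPM) had one of 0.971.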

How the results depend on the processing

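No member was called by edgeR under any setting tried, and RLE factors or a filter of 1 CPM in 4 libraries turned no sign and moved no count by over 1.5 times. Values below are log2 fold changes, and members other than those named kept their direction and their side of the threshold. All reversed values belong to genes within about 1 SE of 0. With plain library sizes 0 members lay wholly below the controls, and Ctsl was at 0.032, Lipa 0.023, Glb1 0.0039, Hexa 0.026, Smpd1 0.018, Atp6v1a 0.034 and Atp6v0d1 0.013. Without a low-count filter 1 gene of the whole table was called higher. DESeq2 called 65 genes higher and 17 lower, with 1 member higher (Ctsz). In limma-voom Hexa was at 0.0037 and Smpd1 at 0.0053.

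A fit with a replicate block called 144 genes higher and 28 lower over the whole table but no member, and Hexa was at 0.0029. Ctsa and Ctsz had an adjusted p of 0.0567 there. Deviations of same-numbered libraries correlated at 0.435, 0.428, 0.754 and 0.052 for numbers 1, 3, 4 and 5, and malonyl-CoA 5 correlated best with control 1, so the numbers were not taken to pair the libraries.

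With the GC correction 2 members lay wholly above the controls, the medians were -0.15 for V0 and accessory genes and 0.18 for MiT/TFE factors, and Ctsl was at 0.054, Lipa 0.073, Man2b1 -0.10, Naglu -0.21, Asah1 0.0059, Atp6v1a 0.050, Atp6v1d 0.051 and Atp6v0b -0.15. With GC and length corrected, 2 members lay wholly above, the MiT/TFE median was 0.15, and Lipa was at 0.077, Man2b1 -0.15, Naglu -0.20, Asah1 0.049, Scarb2 -7.4e-05, Atp6v1a 0.036 and Atp6v1d 0.060. The cause of these shifts was not tested.

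Without both libraries numbered 4, 10 members lay wholly above and 5 wholly below the controls, where 12.9% and 13.3% of all genes did. In that setting Ctsl was at 0.015, Lipa 0.0022, Hexa 0.029, Smpd1 0.035, Atp6v1a 0.044 and Atp6v0d1 0.014. Without control 5 and malonyl-CoA 4, 10 lay wholly above, where 7.83% of all genes did, and the MiT/TFE median was 0.24. There Ctsl was at 0.13, Lipa 0.12, Man2b1 -0.083, Naglu -0.03, Asah1 0.11, Atp6v1a 0.12, Atp6v1d 0.15, Atp6v0b -0.0022 and Atp6v0d1 0.013. Fewer libraries make non-overlap more frequent by construction.

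Leaving out single libraries gave 5 to 9 members wholly above and 1 to 4 wholly below. Over all genes the shares ran from 3.84% to 10.6% and from 3.39% to 10.2%, with extremes in different settings. The 9 came without malonyl-CoA 4, where 5.59% of all genes lay wholly above. Without control 4, where 10.6% of all genes did, 6 members did, and the 4 below came there too (10.2% of all genes). With single libraries left out the MiT/TFE median was 0.26 to 0.47. The median of all members was between -0.01 and 0.10, that of other hydrolases between -0.05 and 0.08, and that of V0 and accessory genes between -0.10 and 0.07, so these had no fixed sign. Ctsh ranged from -0.027 to 0.20, Ctsl from -0.099 to 0.10, Lipa from -0.12 to 0.10, Glb1 from -0.17 to 0.045, Hexa from -0.13 to 0.083, Man2b1 from -0.039 to 0.14, Naglu from -0.065 to 0.21, Asah1 from -0.19 to 0.033, Smpd1 from -0.20 to 0.095, Scarb2 from -0.035 to 0.044, Atp6v1a from -0.079 to 0.12, Atp6v1d from -0.13 to 0.083, Atp6v0b from -0.12 to 0.18 and Atp6v0d1 from -0.091 to 0.068. With 4 libraries a group even the difference of 0.69 in Ctsz, with an SE of 0.15, had an edgeR adjusted p of 0.352.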
